A study of Mus musculus with 24 samples.

Results

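The change in translational efficiency that accompanied Ras and Myc transformation of Eif4e+/- mouse embryonic fibroblasts was measured for 7125 genes. Translational efficiency (TE) was taken per culture, as the log2 value of a gene in polysomal RNA minus its log2 value in total RNA from the same embryo number and state. The genes were chosen by their level alone: a mean over the 6 Eif4e+/- polysomal arrays of both states above 4.0, which 7125 of the 19661 genes with a named probe set had (36.2%). Nearest to that level were Cgnl1, Olfr767 and Klrg2 inside it (mean polysomal values of 4.0003, 4.0005 and 4.0005, TE changes of 0.02, 0.15 and 0.06) and Ap5z1, Pde6h and Atxn1l outside it (3.9998, 3.9999 and, to 4 decimals, 4.0, TE changes of 0.35, 0.21 and -0.30). Both states averaged above 4.0 in 6347 of the genes, the untransformed state alone in 387 and the transformed state alone in 391. All 7125 passed the filter on dim genes that left 14830 genes in the tests, and 6937 were protein coding.

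Eif4e+/- cells carry 1 intact allele of Eif4e, the gene of the cap-binding initiation factor. The cultures were early passage primary fibroblasts from 3 Eif4e+/- embryos of stage E13.5, each untransformed or transformed with Ras and Myc, grown exponentially in 10% serum. Total RNA and RNA from heavy sucrose gradient fractions, collected after cycloheximide had halted elongation, were hybridised to separate Affymetrix Mouse Gene 1.0 ST arrays. This gave 12 Eif4e+/- arrays, and 12 matching WT arrays, also from 3 embryos, entered the estimate of the spread. The replicate is the embryo, and 3 embryos per genotype limit the precision of every value. The labels do not say whether a transformed culture was a pool or 1 clone, nor which Ras and Myc alleles were introduced.

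eIF4E binds the 5′ cap of mRNAs and, with the scaffold eIF4G and the helicase eIF4A, forms eIF4F, which recruits the small ribosomal subunit. The 4E-BPs compete with eIF4G for eIF4E, and Ras signalling and Myc both act on this step. An mRNA engaged by many ribosomes sediments in the heavy fractions, so its polysomal share is read as a measure of initiation, although mRNAs with short reading frames can hold only a few ribosomes.

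TE has no absolute scale here. The total arrays averaged 7.47 to 7.5 and the polysomal arrays 3.78 to 3.79 on the log2 scale in the Eif4e+/- cultures, so nearly every TE value was negative and only differences between cultures were read. The median TE of the 7125 genes lay between -4.05 and -3.83 in the 3 untransformed cultures and between -4.06 and -3.79 in the 3 transformed ones. The median change was 0.05 in embryo 1, -0.12 in embryo 2 and 0.22 in embryo 3. Fibroblast markers were bright in total RNA: the mean of 14 markers ran from 9.95 to 10.13 in untransformed and from 9.06 to 9.90 in transformed Eif4e+/- cultures. None of the 13 endothelial markers, 2 of 15 leukocyte markers (Cd68, Laptm5), 3 of 13 neural, 3 of 11 epithelial, 5 of 13 skeletal muscle, 2 of 10 cartilage and 1 of 9 adipocyte markers reached the polysomal level of 4.0.

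Eif4e itself was read first. Its total RNA value in embryos 1, 2 and 3 was 8.69, 8.88 and 8.83 before transformation and 9.10, 8.84 and 9.21 after it, against means of 9.10 ± 0.10 and 9.62 ± 0.20 in WT (SD, n = 3). All 3 Eif4e+/- values lay below all 3 WT values in either state. Its polysomal values were 3.67, 4.01 and 3.88 before and 4.65, 3.87 and 4.96 after, and its TE went from -5.02, -4.87 and -4.95 to -4.45, -4.98 and -4.25. The states overlapped in TE, and the change of 0.39 ± 0.24 (SE) did not pass (limma, adjusted p = 0.65). The polysomal mean of Eif4e was above 4.0 only in the transformed state (3.85 before, 4.49 after), so its TE before was not clear of background.

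At an adjusted p under 0.05 (limma with the embryo as a block, both genotypes in 1 joint fit, Benjamini-Hochberg over 14830 genes), TE rose in 4 of the 7125 genes and fell in 4. The rises were Lsm5, Map3k7cl, Kif1c and Cenpw, and the falls were Ptgs2, Thbs1, Acta2 and Hspa5. These counts were 0.0561% of the 7125 in either direction, against 0.202% higher and 0.0944% lower over all genes tested, so the members' shares were below the background. At an unadjusted p under 0.05, 8.34% were higher and 3.97% lower, against 6.28% and 4.0% over all genes tested. The number of calls depended on the cultures that set the spread: in the Eif4e+/- cultures alone, with 2 residual degrees of freedom instead of 4, 253 genes passed as higher and 165 as lower (background 2.83% and 1.81%), and the 8 genes were among them. Polysomal RNA averaged above 4.0 in both states for 1 of the 4 rises (Lsm5) and all 4 falls, and for 216 of the 253 and 155 of the 165. In the Eif4e+/- cultures alone limma drew the spread of each gene towards that of all genes. Genes whose embryos differed widely could therefore pass. H2ac4 passed with changes of 0.38, 3.15 and 1.35 (SE 0.37), and Eif3c with -0.02, -1.64 and -1.61 (SE 0.29). A pass in that fit alone does not show that the 3 embryos changed by a like amount. Without WT embryo 3, 169 passed as higher and 133 as lower (background 2.14% and 1.5%). Leaving out any 1 of the Eif4e+/- embryos left 0 of the 7125 genes past the threshold, with 282 to 690 at an unadjusted p under 0.05.

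Lsm5, a subunit of the LSM rings that bind U6 snRNA and take part in mRNA decay, had TE values of -6.52, -5.91 and -5.68 in embryos 1, 2 and 3 before transformation and -3.34, -4.00 and -1.82 after it. Every transformed culture lay above every untransformed one. TE rose by 2.98 ± 0.36 (SE, adjusted p = 0.0144). Its polysomal value rose by 3.26 (adjusted p = 0.00988), from 3.5, 3.91 and 4.71 to 7.34, 6.29 and 8.26. The first 2 untransformed values lay under the chosen level of 4.0 and so were not clear of background. Its total RNA change of 0.27 did not pass (adjusted p = 0.506). Kif1c, a kinesin motor, had TE values of -5.97, -6.03 and -6.05 before and -3.78, -4.32 and -4.01 after, a rise of 1.98 ± 0.30 (adjusted p = 0.0412). Its polysomal values were 4.07, 4.04 and 3.75 before and 5.58, 5.85 and 5.72 after, so its mean was above 4.0 only in the transformed state. TE and polysomal values of the states did not overlap. Cenpw, a histone-fold protein of the inner kinetochore, went from -4.16, -5.05 and -4.71 to -3.28, -3.52 and -3.02, a rise of 1.36 ± 0.22 (adjusted p = 0.0491). Its untransformed polysomal values, 3.89, 2.99 and 3.46, were not clear of background either, and its mean was above 4.0 only in the transformed state (5.44, 4.31 and 5.13). As for Lsm5, the polysomal values of Kif1c and Cenpw rose (1.76 and 1.51, adjusted p of 0.0179 and 0.0104) and their total RNA did not pass.

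Map3k7cl, a small protein related to the kinase TAK1, differed from the other rises in its parts. TE went from -5.34, -5.31 and -5.54 to -3.65, -2.75 and -3.24, a rise of 2.18 ± 0.23 (adjusted p = 0.00704). Total RNA fell by 2.55 (adjusted p = 0.00107), from 9.65, 9.60 and 9.92 to 7.52, 6.97 and 7.02. The polysomal values were 4.31, 4.28 and 4.38 before and 3.87, 4.22 and 3.77 after, and did not pass (change -0.37, adjusted p = 0.512). The gene's polysomal values thus sat close to the chosen level of 4.0 in both states, and near the array means of 3.78 to 3.79. Cdc42ep3, an effector of the GTPase Cdc42, had the same form without passing: TE 1.97, total RNA -2.97 and polysomal -1.0. Its transformed polysomal values, 3.64, 3.97 and 3.20, were not clear of background, and its mean was above 4.0 only in the untransformed state.

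Ptgs2, the inducible prostaglandin synthase COX-2, showed the lowest TE change of the 7125 genes. Its TE was -4.02, -3.20 and -4.05 before transformation and -6.38, -5.77 and -7.33 after, and every transformed culture lay below every untransformed one. TE fell by 2.74 on the log2 scale (SE 0.27, 6.7-fold, adjusted p = 0.00643). Polysomal RNA fell by 3.95 (adjusted p = 0.0186), and total RNA, at 12.88, 13.11 and 12.72 before and 11.92, 12.37 and 10.77 after, did not pass (change -1.21, adjusted p = 0.117). Thbs1, the matricellular protein thrombospondin 1, had TE values of -3.63, -3.70 and -3.44 before and -5.79, -5.58 and -6.75 after, a change of -2.45 ± 0.29 (adjusted p = 0.0144). Acta2, the smooth muscle actin of myofibroblast stress fibres, had TE values of -1.54, -1.55 and -1.80 before and -3.35, -3.27 and -3.63 after, a change of -1.78 ± 0.19 (adjusted p = 0.00836). In both genes total RNA fell as well, with changes of -1.32 and -1.79 (adjusted p of 0.0287 and 0.0142), and the polysomal changes were -3.77 and -3.57.

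Hspa5 encodes BiP, the HSP70 chaperone of the endoplasmic reticulum. TE was -3.52, -3.64 and -3.45 before transformation and -4.57, -5.37 and -5.57 after, a change of -1.63 ± 0.25 (adjusted p = 0.0448). Total RNA fell by 0.40 (adjusted p = 0.0143), from 12.02, 12.04 and 12.02 to 11.64, 11.71 and 11.52, so most of its polysomal change of -2.03 was in TE. Besides the left-out Eif4e+/- embryos, which ended all 8 calls, Hspa5 lost its call with the fractions scaled to equal spread, with a stricter filter and without WT embryo 2, and Cenpw lost it with the stricter filter and without WT embryos 1 or 2. Kif1c lost it when probe sets of a gene were averaged.

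**Figure D1:**
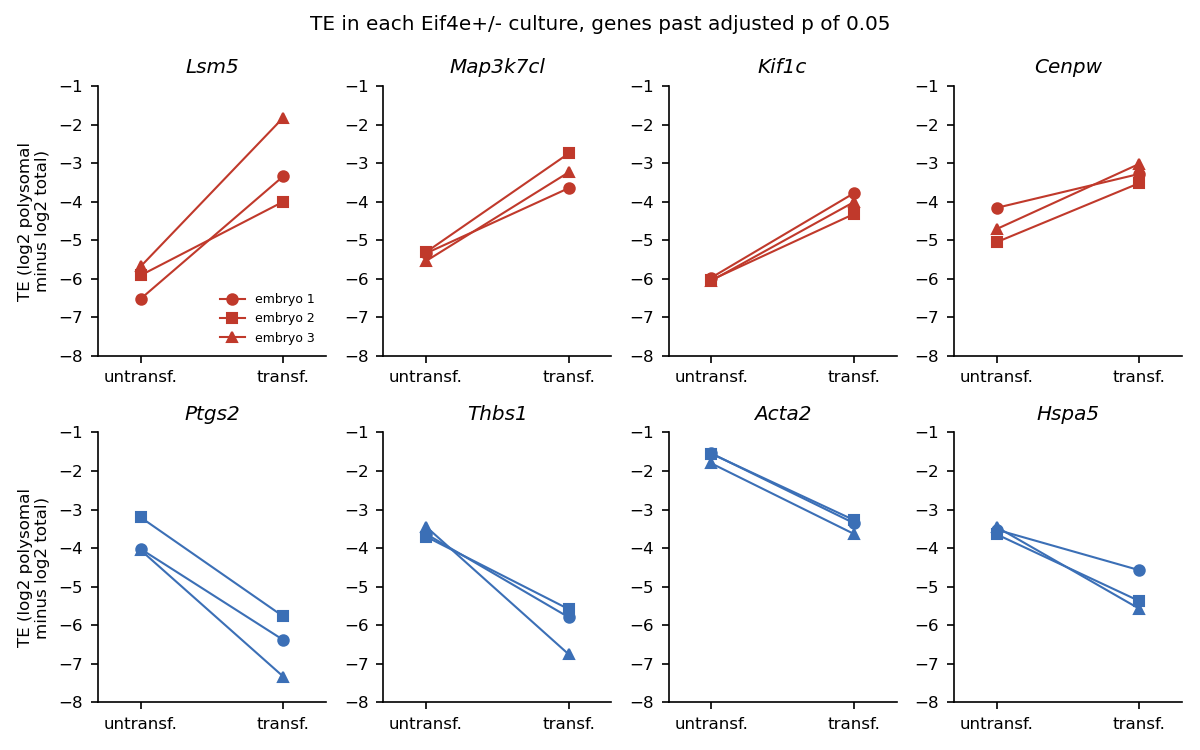
TE (log2 polysomal minus log2 total, vertical axis) of the 8 genes past an adjusted p of 0.05, in each untransformed and transformed Eif4e+/- culture, with lines joining cultures of 1 embryo. All 3 embryos rose in the upper row (Lsm5, from -6.52, -5.91 and -5.68 to -3.34, -4.00 and -1.82) and fell in the lower row (Ptgs2, from -4.02, -3.20 and -4.05 to -6.38, -5.77 and -7.33), and the states do not overlap.

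Beyond these 8, the genes with the smallest p-values had adjusted p between 0.0525 and 0.0651 in the same fit, and passed in the Eif4e+/- cultures alone. On the positive side, Rpa3, the smallest subunit of the single-stranded DNA binding protein RPA, changed from -4.92, -5.63 and -4.40 to -2.76, -3.27 and -1.63 (2.42 ± 0.40, adjusted p = 0.0526 for the joint fit and 3.48e-05 for the Eif4e+/- cultures alone). Mcts1, a partner of DENR in ribosome recycling and reinitiation, changed by 1.5, 1.60 and 1.63 in the 3 embryos. Odc1, the ornithine decarboxylase that starts polyamine synthesis and a gene often listed as sensitive to eIF4E, changed by 1.27, 1.21 and 1.60. The histone H4c3 (1.41) and Cacybp (1.73), a calcyclin-binding protein of ubiquitin ligase complexes, completed this set with Cdc42ep3. The total RNA of Rpa3, Mcts1, H4c3, Cacybp and Odc1 did not pass (changes of 0.32, 0.03, 0.10, 0.39 and 0.41), and their polysomal RNA rose by 1.51 to 2.74.

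On the negative side, Igfbp7, a secreted binding protein of insulin-like growth factors, changed by -1.29, Calu, a calcium-binding protein of the endoplasmic reticulum, by -1.75, and P4hb, the protein disulfide isomerase that is also a subunit of prolyl 4-hydroxylase, by -1.28. Itgb1, the common integrin beta chain, changed by -1.59, Inhba, a subunit of activin A, by -1.24, and Lman1, a cargo receptor between endoplasmic reticulum and Golgi, by -1.11. The TE states of each of these 6 genes did not overlap, as was so for 931 of the 7125 genes upward (13.1%, background 10.0%) and 668 downward (9.38%, background 9.92%). Total RNA fell in 5 of them, by 0.34 (Lman1) to 1.86 (Igfbp7), and that of Inhba did not pass (change -1.04, adjusted p = 0.199). None of the 20 genes described so far changed sign under any of the 16 alternative settings or left-out embryos. Each had moved in the same direction in every Eif4e+/- embryo, so leaving out an embryo could not reverse its sign. Settings that altered only the spread could not reverse it either. For those settings the unchanged sign is therefore no evidence of stability.

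**Figure D2:**
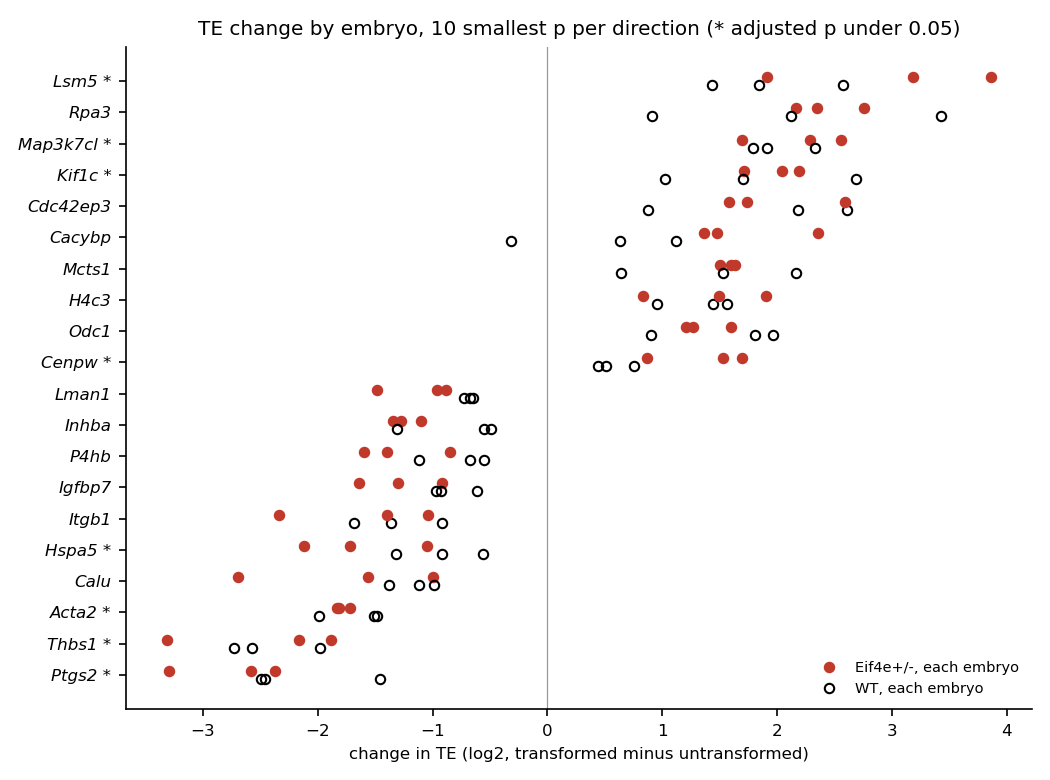
TE change in each embryo (log2, transformed minus untransformed, horizontal axis) for the 10 genes of smallest p in each direction, with Eif4e+/- embryos as filled and WT embryos as open circles, and genes past adjusted p 0.05 starred. All Eif4e+/- points lie on 1 side of 0 for each gene, and among WT points only 1, of Cacybp, lies across it.

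Across all 7125 genes the TE and total RNA changes were nearly unrelated. Total RNA passed as higher in 453 genes (background 5.68% of all genes tested) and as lower in 784 (background 8.58%), against 6.36% and 11% of the 7125. Polysomal RNA passed as higher in 60 (background 0.479%) and as lower in 172 (background 1.31%). The median TE change was 0.06 among the 453 and -0.05 among the 784, against 0.06 among the 5888 not called in total RNA. Pearson's r between the total RNA and TE changes was 0.06 across genes, and between the total and polysomal changes 0.75. Genes are not independent replicates, and TE is built from both other measures, so these values only describe the 7125 genes. The SD over genes was 0.43 for the TE change, 0.46 for total RNA and 0.65 for polysomal RNA, and 192 genes had a TE change beyond 1 in size. The changes of pairs of Eif4e+/- embryos correlated across genes at r = 0.37, 0.46 and 0.55.

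**Figure D3:**
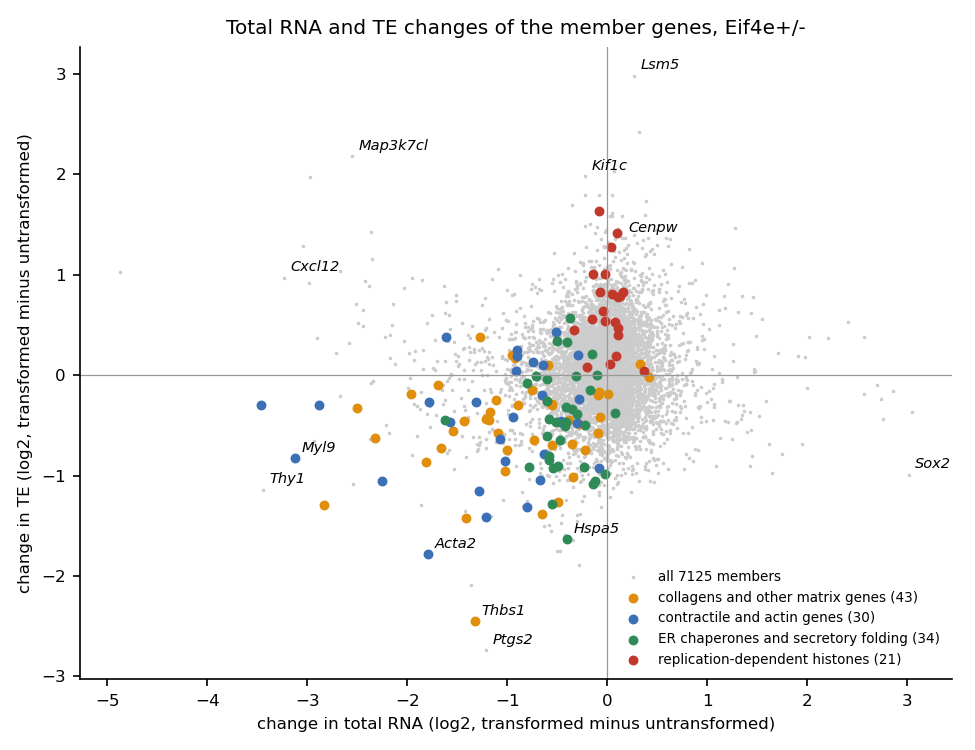
Change in total RNA (horizontal axis) and in TE (vertical axis), both log2 transformed minus untransformed in Eif4e+/- cultures, for the 7125 genes (grey) and 4 gene lists (coloured). Matrix and contractile genes spread to the lower left (medians of -0.89 and -0.90 for total RNA and -0.45 and -0.44 for TE), and histones lie above 0 on the TE axis at little change in total RNA (medians of 0.64 and 0.04).

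Gene lists were compared by their medians and counts. In the Eif4e+/- cultures alone 3.55% of the 7125 genes passed as higher and 2.32% as lower, against 2.83% and 1.81% of all genes tested. These shares stand beside every list count of that fit. The median TE change over all 7125 genes was 0.05 and over all genes tested -0.01, and 27 lists ranged around it from -0.46 for endoplasmic reticulum chaperones to 0.64 for replication-dependent histones. All 21 histone genes that were members had a positive change, from 0.04 to 1.63, and 15 were higher in all 3 embryos, against 24.5% of the 7125 genes and 19.2% of all genes tested. In the joint limma fit 0 passed. At an unadjusted p under 0.05, 11 were higher, against 8.34% of the 7125 genes and 6.28% of all genes tested. In the Eif4e+/- cultures alone 7 of the 21 rose: H2ac4 (1.63), H4c3 (1.41), H4c8 (1.28), H2bc9 (1.01), H2bc14 (1.01), H2ac15 (0.81) and H4c6 (0.79). Histone mRNAs of this class are made in S phase and end in a stem-loop in place of a poly(A) tail. Their median total RNA change was 0.04, so the shift lay in the polysomal value, whose median change was 0.61. H4c3 had TE values of -1.36, -2.08 and -1.46 before and -0.52, -0.18 and 0.03 after. Embryo 1 moved least in the list (median 0.16, against 0.92 and 0.87). Histone genes are near copies of each other, so probe sets may share signal and the 21 genes are not independent.

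The mitochondrial lists lay on the same side. Of 64 nuclear-encoded subunits of oxidative phosphorylation 59 had a positive TE change (median 0.44), 42 were higher in all 3 embryos and 3 lower in all 3. Over the 7125 genes 24.5% were higher and 18% lower in all 3, and over all genes tested 19.2% and 19.4%. In the joint limma fit 0 passed, with 19 higher and 1 lower at an unadjusted p under 0.05. The shares at that p were 8.34% and 3.97% of the 7125 genes, and 6.28% and 4.0% of all genes tested. In the Eif4e+/- cultures alone 8 passed as higher and 1 as lower: Ndufb9 (1.32), Cox7b (1.21), Cox4i1 (1.12), Ndufv1 (1.03), Atp5d (0.96), Ndufb7 (0.91), Uqcrh (0.89) and Cox6c (0.85) rose, and Sdha (-0.77), the flavoprotein of complex II, fell. Cox7b, a small subunit of cytochrome c oxidase, went from -3.38, -3.94 and -3.22 to -2.60, -2.35 and -1.95 with total RNA at 10.76, 10.87 and 10.67 before and 10.99, 11.01 and 10.89 after. Of 72 mitochondrial ribosomal proteins 66 had a positive change (median 0.37) and 37 were higher, 0 lower, in all 3 embryos. Mrpl42 led them at 1.44 ± 0.27 (adjusted p = 0.0818 in the joint fit), with Mrpl54 (1.24), Mrps28 (1.10), Mrps26 (1.05), Mrpl14 (0.85) and Mrps18c (0.81) also past the threshold in the Eif4e+/- cultures alone. Total RNA rose in 14 of the 72, against 1 each among the histones, oxidative phosphorylation subunits and cytosolic ribosomal proteins. It passed as higher in 6.36% of the 7125 genes and 5.68% of all genes tested.

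Cytosolic ribosomal proteins, whose mRNAs begin with a terminal oligopyrimidine (TOP) tract, had a median of 0.40 and a positive change in 19 of 21. Rps9 (0.83) rose in the Eif4e+/- cultures alone, and Rpl26 (0.73), Rpl8 (0.68) and Rps14 (0.65) did not pass. A probe set with 1 symbol was present for 22 of 79 listed genes, so the 21 members stand for a minority of the ribosome, and signal from processed pseudogenes is uncertain. The other TOP mRNAs, which encode elongation factors, initiation factor 3 subunits and further proteins, had a median of 0.01 with 10 of 19 positive. There Cox4i1 (1.12) rose and Eef1a1 (-0.92), Vim (-0.92) and Ipo5 (-0.86) fell in the Eif4e+/- cultures alone.

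Collagens and other matrix genes, which fibroblasts secrete to build connective tissue, had a median TE change of -0.45, with 38 of 43 negative. Polysomal RNA averaged above 4.0 in both states for 33 of the 43, against 6347 of the 7125. The TE of the others was not clear of background in 1 state. Thbs1 was the 1 member past the threshold in the joint fit, and 27 of the 43 were lower in all 3 embryos, against 18% of the 7125 genes and 19.4% of all genes tested. In the Eif4e+/- cultures alone 8 fell: besides Thbs1, Lox (-1.42), the collagen crosslinking oxidase, Bgn (-1.38), Postn (-1.29), Fn1 (-1.26), Sparc (-1.01), Ccn1 (-0.95) and Tnc (-0.87). Sparc had TE values of -2.33, -2.65 and -2.25 before and -3.27, -3.41 and -3.57 after. Total RNA also fell in 21 of the 43 and rose in 1 (median -0.89), and polysomal RNA fell in 12 and rose in 0 (median -1.35). Over the 7125 genes total RNA fell in 11% and polysomal RNA in 2.41%. Over all genes tested the shares were 8.58% and 1.31%.

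Contractile and actin genes had a median of -0.44, with 22 of 30 negative, and 18 were lower in all 3 embryos. Lower in all 3 were 18% of the 7125 genes and 19.4% of all genes tested. Acta2 passed in the joint fit, and 9 fell in the Eif4e+/- cultures alone, among them Actn1 (-1.41) and Actn4 (-1.04), which crosslink actin, Cald1 (-1.31), Pdlim5 (-1.15), Tagln (-1.05), Vcl (-0.86) and Myl9 (-0.83), a myosin regulatory light chain. Actn1 went from -3.20, -2.79 and -3.29 to -4.02, -4.57 and -4.92. Total RNA fell in 25 of the 30 (median -0.90), against 11% of the 7125 genes and 8.58% of all genes tested. The median was -0.64 with both fractions scaled to equal spread and -0.30 over members above 3.5. The fibroblast marker list, which shares 5 genes with the matrix list and 1 with the contractile list, moved with both: its mean in total RNA was 9.95 to 10.13 before and 9.06 to 9.90 after, its TE median was -0.54 with 8 of 11 members negative, its polysomal median change was -1.0, and Thy1 fell by 3.44 in total RNA. Marker means of leukocytes (7.39 to 7.61 before, 6.80 to 6.91 after) and endothelium (7.10 to 7.22 before, 6.93 to 7.0 after) were lower too, and that of epithelium was higher (7.42 to 7.62 before, 7.66 to 7.82 after). Their part in the result was not tested. In such bulk cultures fewer cells of a type and less RNA per cell cannot be told apart.

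Endoplasmic reticulum chaperones and folding enzymes, which mature secreted and membrane proteins, had the lowest median of the 27 lists, -0.46, with 30 of 34 negative. Hspa5 passed in the joint fit and 21 were lower in all 3 embryos, against 18% of the 7125 genes and 19.4% of all genes tested. The shares passing as lower in the Eif4e+/- cultures alone were 2.32% and 1.81%. In the Eif4e+/- cultures alone 9 fell: Hspa5, the disulfide isomerases P4hb (-1.28), Pdia3 (-1.08), Pdia6 (-0.91) and Pdia4 (-0.90), the lectin chaperones Canx (-0.98) and Calr (-0.92), and Ssr3 (-0.91) and Ostc (-0.85), which belong to complexes at the translocon. P4hb went from -3.24, -3.17 and -2.91 to -4.09, -4.57 and -4.51. Total RNA fell in 22 of the 34, with a smaller median (-0.42) than in the matrix and contractile lists, and polysomal RNA fell in 11. Over the 7125 genes the shares were 11% and 2.41%, and over all genes tested 8.58% and 1.31%.

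The promoters of this group were searched because many of its genes are known targets of the unfolded protein response, whose factors ATF6 and XBP1 act through the ER stress response element (ERSE). The element was searched as CCAAT, any 9 bases and CCACG, on both strands of the 250 bases before the annotated start (RefSeq, GRCm38.p6). It contains a CCAAT box by construction. It was found for 6 of the 28 chaperone and folding genes with a promoter in the table (21.4%). It was found for 0.13% of all 27025 genes in the table and 0.156% of the 5755 genes above the polysomal level that had a promoter there. The list holds known targets of this response, so a larger share follows in part from how it was written and was not tested. The 6 stretches below are printed in the direction of transcription with the element in capitals.
Hspa5 (chr2:34772005-34772063, plus strand): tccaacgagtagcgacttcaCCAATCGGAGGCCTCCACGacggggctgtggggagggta
Pdia6 (chr12:17266471-17266529, plus strand): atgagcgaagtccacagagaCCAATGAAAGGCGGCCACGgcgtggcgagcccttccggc
Calr (chr8:84847055-84847113, minus strand): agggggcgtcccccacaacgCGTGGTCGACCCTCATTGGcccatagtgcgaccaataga
Canx (chr11:50325780-50325838, minus strand): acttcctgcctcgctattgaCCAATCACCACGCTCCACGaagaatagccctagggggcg
Hsp90b1 (chr10:86705513-86705676, minus strand): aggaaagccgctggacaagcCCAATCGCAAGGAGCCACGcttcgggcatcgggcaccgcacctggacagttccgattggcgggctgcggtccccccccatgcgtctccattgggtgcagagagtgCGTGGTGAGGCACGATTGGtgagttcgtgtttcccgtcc
Creld2 (chr15:88819500-88819558, plus strand): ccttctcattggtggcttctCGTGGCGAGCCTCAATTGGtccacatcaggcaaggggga
The 6 genes did not move alike. TE fell for Hspa5 in the joint fit and for Pdia6, Calr and Canx in the Eif4e+/- cultures alone, and did not pass for Hsp90b1 (-1.05, adjusted p = 0.0534 in those cultures), which carries the element at both ends of its stretch, or Creld2 (-0.04, adjusted p = 0.955). Total RNA fell for Hspa5 (-0.40), Pdia6 (-0.78), Calr (-0.54) and Creld2 (-0.60), and did not pass for Canx (-0.02) or Hsp90b1 (-0.12). A match is only a description of these letters, and a promoter bears on the amount of mRNA rather than on ribosome loading.

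The contractile genes were searched in the same way for the CArG box, the site of serum response factor. It was present for 4 of 27 (14.8%), against 1.62% of all genes in the table and 1.6% of those above the polysomal level. Srf itself was among them and held a pair of sites. The list holds Srf and targets of this factor, so a larger share follows in part from how it was written and was not tested.
Myl9 (chr2:156775283-156775332, plus strand): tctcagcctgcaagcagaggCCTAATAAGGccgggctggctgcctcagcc
Vcl (chr14:20929151-20929200, plus strand): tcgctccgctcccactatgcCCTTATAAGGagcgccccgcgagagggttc
Cnn2 (chr10:79988524-79988573, plus strand): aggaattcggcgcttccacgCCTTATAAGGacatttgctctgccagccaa
Srf (chr17:46556195-46556264, minus strand): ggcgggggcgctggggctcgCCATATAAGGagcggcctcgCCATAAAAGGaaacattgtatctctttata
Total RNA fell for all 4, with changes of -3.12 (Myl9), -1.78 (Cnn2), -1.02 (Vcl) and -0.51 (Srf). TE fell for Myl9 (-0.83) and Vcl (-0.86) in the Eif4e+/- cultures alone and did not pass for Cnn2 (-0.27) or Srf (0.43). These 10 genes were named for the match in their promoters.

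**Figure D4:**
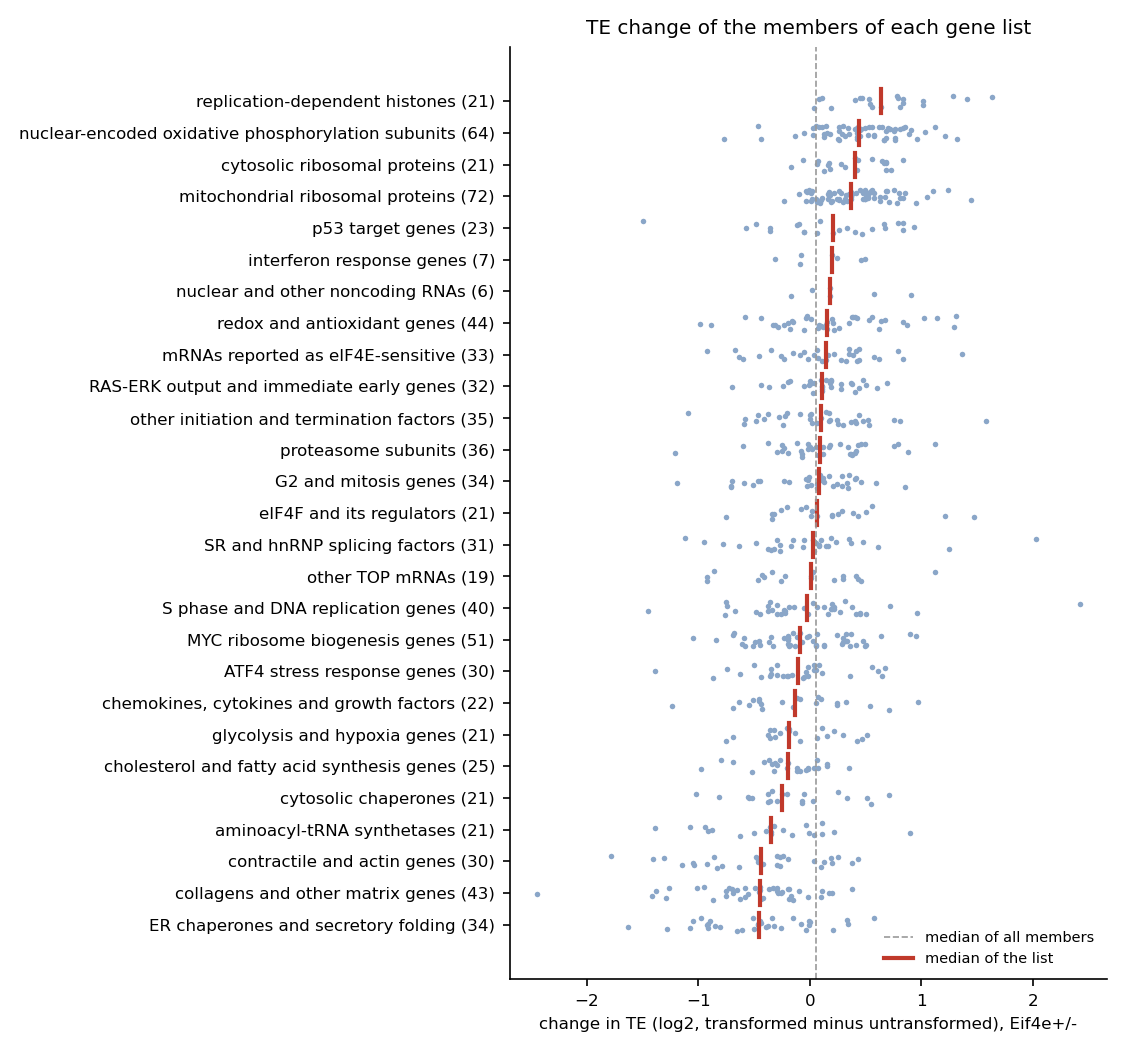
TE change of every member gene (log2, transformed minus untransformed in Eif4e+/- cultures, horizontal axis) in 27 gene lists, with the list's median as a red bar, the median of all members as a dashed line and the number of members in parentheses. Medians run from -0.46 for endoplasmic reticulum chaperones to 0.64 for histones, with 0.05 for all members.

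Among the initiation factors 0 passed in the joint limma fit, with 5 higher and 0 lower at an unadjusted p under 0.05. The shares at that p were 8.34% higher and 3.97% lower among the 7125 genes. Over all genes tested they were 6.28% and 4.0%. The 21 genes of eIF4F and its regulators had a median of 0.06, with 13 positive, and embryos that disagreed (0.21, -0.33 and 0.49). Paip1 (1.47, from -7.02, -7.29 and -7.09 to -5.75, -6.11 and -5.11) and Paip2 (1.21), an activator and an inhibitor of the poly(A)-binding protein, rose in the Eif4e+/- cultures alone. The untransformed polysomal values of Paip1, 3.86, 3.35 and 3.48, were not clear of background, and its mean was above 4.0 only in the transformed state. The helicase Eif4a2 (-0.75), the cap-binding homologues Eif4e2 (0.29) and Eif4e3 (0.20), the scaffolds Eif4g2 (-0.08) and Eif4g3 (-0.34), the helicase cofactors Eif4b (-0.34) and Eif4h (0.01), and the inhibitors Eif4ebp1 (0.56) and Eif4ebp2 (0.25) did not pass in either fit. The other 35 initiation and termination factors had a median of 0.10, with Mcts1 (1.58) and Eif4a3 (0.81) higher and Eif3c (-1.09) lower in the Eif4e+/- cultures alone. Aminoacyl-tRNA synthetases, which charge tRNAs, leaned lower (median -0.35, 16 of 21 negative): Nars (-1.39), Lars (-1.08), Rars (-0.94), Iars (-0.91) and Tars (-0.88) fell in those cultures, while Eef1e1 (0.90), a scaffold protein of the synthetase complex, rose. Their total RNA rose in 2 and fell in 0.

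The mRNAs often reported as sensitive to eIF4E had a median of 0.14, with 21 of 33 positive. In the Eif4e+/- cultures alone, Odc1 (1.36), Fth1 (0.83), the ferritin heavy chain, and Akt1 (0.79) rose and Vim (-0.92) fell. Fth1 went from -6.96, -6.80 and -7.04 to -6.18, -5.79 and -6.32. Redox and antioxidant genes had a median of 0.15, with 29 of 44 positive: Glrx3 (1.31), Mgst3 (1.29), Gpx1 (1.14), Txn2 (1.02) and Fth1 rose and Txnip (-0.99) and Idh1 (-0.89) fell in those cultures. Mgst3 changed by 0.12, 2.02 and 1.73 in embryos 1, 2 and 3, and its untransformed polysomal values were 5.37, 3.39 and 3.30. Those of embryos 2 and 3 were under 4.0 and not clear of background. The eIF4E-sensitive and redox lists share 7 genes.

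Lists tied to the introduced oncogenes lay near the median of all members. The MYC ribosome biogenesis genes had a median TE change of -0.09 (22 of 51 positive) although 10 of them rose in total RNA (median 0.33). Total RNA rose in 6.36% of the 7125 genes and 5.68% of all genes tested. Rrs1 (0.90) rose and Ddx21 (-1.05) and Heatr1 (-0.84) fell in TE in the Eif4e+/- cultures alone. The 32 RAS-ERK output genes had a median of 0.11, and 0 passed in TE in either limma fit, with Ier3 at 0.69 and Emp1 at -0.70. At an unadjusted p under 0.05, 1 was higher and 1 lower, against 8.34% and 3.97% of the 7125 genes. Over all genes tested the shares were 6.28% and 4.0%. In total RNA 7 of the 32 rose and 5 fell. S phase genes had a median of -0.03, with Rpa3 (2.42) and Pold2 (0.96) higher and Rrm1 (-1.45) lower in those cultures, and G2 and mitosis genes 0.08, with Anln (-1.19) lower. In that fit 3.55% of the 7125 genes were higher and 2.32% lower, and 2.83% and 1.81% of all genes tested. The few genes named from the MYC, S phase and G2 lists lay near these shares and are no result about the lists. The p53 targets had a median of 0.21: Ei24 (0.93), Gadd45a (0.83) and Phlda3 (0.83) rose, Plk2 (-1.50) fell, and 10 of 23 rose in total RNA.

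The remaining lists had medians between -0.25 and 0.20. Cytosolic chaperones stood at -0.25 (Stip1 -1.02, past the threshold in the Eif4e+/- cultures alone). Cholesterol and fatty acid synthesis stood at -0.20 (Nsdhl -0.98 and Scd2 -0.80, likewise). Glycolysis and hypoxia genes stood at -0.19, with none past the threshold in either limma fit. At an unadjusted p under 0.05, 0 of them were higher and 2 lower, against 8.34% and 3.97% of the 7125 genes. Over all genes tested the shares were 6.28% and 4.0%. Chemokines and growth factors stood at -0.13 (Inhba -1.24, past the threshold in the Eif4e+/- cultures alone) and ATF4 targets at -0.11 (Slc38a2 -0.87 and Nars, likewise). Proteasome subunits stood at 0.09 (Psme2 1.12 and Psmd1 -1.21), and splicing factors at 0.03 with Srsf3 (2.03) and Srsf9 (1.25) higher and Sf3b1 (-1.12), Hnrnph1 (-0.95) and Ptbp2 (-0.78) lower. Srsf3, the smallest SR protein, went from -5.41, -5.77 and -5.62 to -3.75, -4.34 and -2.64 at a total RNA change of 0.07. The 7 interferon response genes had a median of 0.20, and the 6 noncoding RNAs 0.18, with the snoRNA host Gas5 (0.91) higher in those cultures.

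Whether Eif4e+/- cultures changed differently from WT ones was tested as the difference between the 2 state effects. No gene passed (0 of the 7125, 0% of all genes tested in either direction, limma), and at an unadjusted p under 0.05 the difference was higher in 52 and lower in 90 of the 7125 (0.883% and 1.07% over all genes tested). Without WT embryo 3, again 0 passed, but 1399 genes had an unadjusted p under 0.05 (limma), against 142 with that embryo. In WT itself 14 of the 7125 rose and 3 fell in TE (background 0.506% and 0.196%). Across the 7125 genes the Eif4e+/- and WT changes correlated at Pearson's r = 0.64 and Spearman's rho = 0.57, a description over genes from different embryos hybridised as 1 set. The 8 genes changed in WT by 1.95 (Lsm5), 2.01 (Map3k7cl), 1.80 (Kif1c), 0.57 (Cenpw), -2.13 (Ptgs2), -2.43 (Thbs1), -1.66 (Acta2) and -0.93 (Hspa5). Of these, Map3k7cl, Kif1c, Ptgs2, Thbs1 and Acta2 passed in WT too (adjusted p of 0.0109, 0.0359, 0.0185, 0.014 and 0.0129). Their differences between genotypes ran from -0.70 (Hspa5) to 1.04 (Lsm5), and none passed (adjusted p = 1).

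The differences with the smallest p, all with an adjusted p of 1, were negative for Adgrl2 (-1.18), an adhesion receptor, Has2 (-1.94), a hyaluronan synthase, Slit2 (-1.88), a secreted guidance ligand, Lclat1 (-1.25) and Dcaf7 (-1.11). They were positive for Serf2 (1.28), Srsf9 (1.47), Ube2d1 (1.15), Uqcr11 (1.09) and Mbd3 (0.92). Has2 TE was -6.26, -6.28 and -6.41 before and -6.30, -6.62 and -6.00 after in Eif4e+/- cultures, so those states overlapped, while in WT it rose by 1.95 (adjusted p = 0.0309). Its transformed Eif4e+/- polysomal values, 3.53, 3.51 and 3.52, were not clear of background, so its mean was above 4.0 only in the untransformed state. The transformed polysomal mean of Slit2 (3.81) and the untransformed ones of Serf2 (3.96) and Uqcr11 (3.79) were also under 4.0. In the gene lists the median difference was -0.39 for aminoacyl-tRNA synthetases, -0.31 for matrix genes and -0.29 for endoplasmic reticulum chaperones, beside -0.10 for all 7125. It was 0.08 for oxidative phosphorylation and -0.11 for histones. The embryos of 1 genotype disagreed by as much: the synthetase median was 0.71, 0.49 and -1.01 in the WT embryos and -0.19, -0.71 and -0.02 in the Eif4e+/- embryos, and the median of all 7125 was 0.50, 0.18 and -0.21 in WT.

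**Figure D5:**
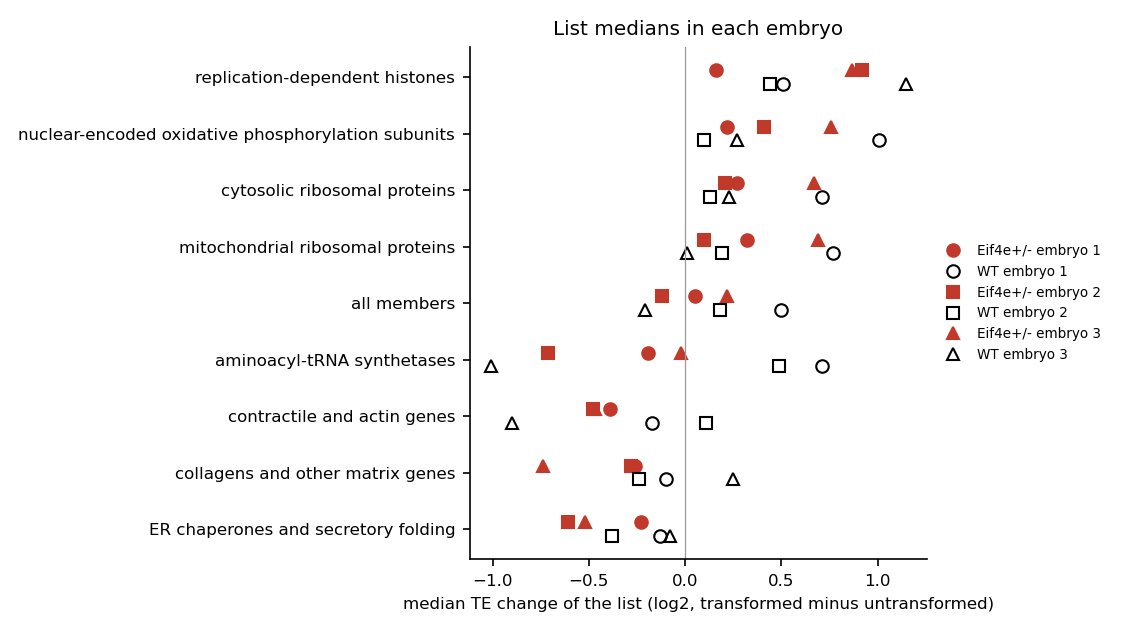
Median TE change (log2, transformed minus untransformed, horizontal axis) of 8 gene lists and of all members in each Eif4e+/- embryo (filled) and each WT embryo (open). Histone, oxidative phosphorylation and both ribosomal protein lists are above 0 in all embryos, and endoplasmic reticulum chaperones are below 0 in all. The median of all members is itself 0.50, 0.18 and -0.21 in WT embryos 1, 2 and 3. In WT embryo 2 oxidative phosphorylation (0.10) and cytosolic ribosomal proteins (0.13) lie below it. In WT embryo 3 endoplasmic reticulum chaperones (-0.08) lie above it. The synthetase medians of WT embryos run from -1.01 to 0.71.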

How the data were processed

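The 24 arrays held total and polysomal RNA of 12 cultures. The deposited values are log2 intensities summarised by the authors with RMA, per the series' design text and the submitters' processing notes; the RMA version, background settings and genome build are not given in the sources used here. Of 25668 probe sets, 20777 had 1 gene symbol in GEO's platform annotation, 232 several and 4659 none. The brightest probe set stood for each of 564 genes with more than 1. A gene was kept where at least 3 arrays measured it above their own 40th percentile (14830 genes). TE was fitted with limma 3.58.1 in R 4.3.3 (lmFit, eBayes) over all 12 cultures with embryo as a block and a state effect per genotype, with 4 residual degrees of freedom, and p-values were adjusted by Benjamini-Hochberg over all genes kept. The titles give cultures of both states the same numbers, which were read as embryo numbers and pair the states. All Eif4e+/- titles also carry the label biological rep1, whichever the number. Over genes, TE deviations of cultures with the same number correlated at -0.021, 0.085 and 0.07 in Eif4e+/-. They correlated at -0.171, -0.032 and -0.409 in WT, so the values do not bear out the pairing. The fit was tested on simulated data. Genes were named by rule: calls moving 1 way in all 3 embryos, the 10 smallest p per direction where fewer passed, the 5 smallest per direction between genotypes and the 4 smallest per list, with eIF4F genes; other genes past the threshold in the Eif4e+/- cultures alone, and those named for promoter matches, were chosen after their values were seen. Members and lists were chosen with earlier results of these data known. Alternatives changed normalization, centring, filters, probe sets, variance model, cultures in the fit, block, level and fraction spread.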

Additional observations from a re-analysis of the deposited data

Results flagged for a closer look

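In 3 of the 149 named genes every Eif4e+/- embryo moved 1 way in TE and every WT embryo the other way. Ube2d1, a ubiquitin-conjugating enzyme, was higher after transformation in 3 of 3 Eif4e+/- embryos and lower in 3 of 3 WT embryos (difference 1.15). Adgrl2 (difference -1.18) and the desaturase Scd2 (difference -1.05) had the opposite order. Ube2d1 and Adgrl2 were named for a small p of the difference between genotypes, so their opposite directions follow in part from that choice. The share of all genes with such directions was not counted, so 3 of 149 cannot be set against a background. The directions were not tested as such. The interaction term had an adjusted p of 1 for each of the 3 genes (limma).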

How the results depend on the processing

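The TE count of 8 was 418 in the Eif4e+/- cultures alone, 160 with array weights, 32 with centred arrays, 27 with equal spread of the fractions, 22 with trend and robust settings, 46 after quantile normalization, 13 for members above 3.5 and 5 above 5.0. It was 0 to 0 without single Eif4e+/- embryos and 6 to 302 without single WT embryos, an alternative chosen after seeing the data; the count of 302 was without WT embryo 3. Without the replicate block, which pairs the states by embryo, it was 47. The total RNA count of 1237 was 1917 with array weights, 649 above 5.0 and 164 to 785 without single Eif4e+/- embryos (to 1494 without WT embryo 3). The polysomal count of 232 was 1253 in the Eif4e+/- cultures alone, 1138 with array weights, 356 centred, 370 after quantile normalization, 459 without the replicate block, 0 to 23 without single Eif4e+/- embryos and 1156 without WT embryo 3. The difference between genotypes stayed at 0 calls in every setting run. Its genes at an unadjusted p under 0.05 (limma) were less stable. They numbered 142 as reported, 939 with array weights and 1399 without WT embryo 3. In the other settings they numbered from 61 (above 5.0) to 219 (without WT embryo 1). List medians moved beyond their spread in 9 of 204 settings: contractile genes -0.64 (equal spread) and -0.30 (above 3.5), glycolysis 0.06 (above 5.0), interferon genes -0.13 (quantile normalization), and marker lists of neural cells -0.25, epithelium 0.37, skeletal muscle -0.23 and -0.34, and adipocytes 0.08. No call reversed. The cause of these shifts was not tested. Signal limits the precision: polysomal arrays average 3.78 to 3.79, just under the level used to choose genes.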

Other observations

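Sox2, a transcription factor of stem and neural progenitor cells, rose in total RNA by 3.02 (limma, adjusted p = 0.00889), from 6.78, 6.61 and 6.5 in embryos 1, 2 and 3 to 9.49, 9.46 and 10.01, with no overlap of the states. Its TE was -3.40, -3.25 and -2.73 before and -3.90, -4.57 and -3.89 after, a change of -0.99 ± 0.26 (SE) that passed in the Eif4e+/- cultures alone (adjusted p = 0.0208) and not in the joint fit (adjusted p = 0.192). Its untransformed polysomal values, 3.39, 3.36 and 3.77, were not above the array means of 3.78 to 3.79, so its mean was above 4.0 only in the transformed state and its TE before was not clear of background. The neural marker list as a whole went the other way, from a mean of 7.92 to 8.08 in total RNA to 7.31 to 7.48.

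The fibroblast marker list had a median TE change of -0.54, with 8 of 11 members negative, 6 lower and 3 higher in all 3 embryos. In the Eif4e+/- cultures alone the surface glycoprotein Thy1 (-1.14) and the intermediate filament Vim (-0.92) fell, and the transcription factor Twist1 (0.80) and the calcium-binding S100a4 (1.13) rose. For Thy1 total RNA fell by 3.44 and polysomal RNA by 4.59, the lowest polysomal change of the 7125 genes, while the total RNA of Twist1 and S100a4 did not pass (changes of 0.19 and 0.26).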
